A study of Mus musculus with 15 samples.

Results

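The 37 collagen genes described here are the symbols written Col, a number, a and a number in the deposited tables, with Col17a1 left out, among 20418 gene symbols in all. They were taken by name and not by any measured value, with 1 transcript per symbol, the one with the highest mean read count, which mattered for 4 of them. RNA came from mouse eyes, which the labels describe in part as taken with their eyelids, in a study of Egr1, a zinc finger transcription factor, in the development of the eyelid. All mice are labelled as BALB/c. The Egr1-/- allele came from a C57BL/6 line, which was crossed to BALB/c over 5 generations in one backcross and 4 in another. At 3 days of age the groups were open eyes of Egr1-/- mice (4 eyes: E24 right, E29 left, E32 right and E32 left), closed eyes of Egr1-/- mice (2 eyes: E24 left and E29 right) and closed eyes of an Egr1+/- littermate (2 eyes: E28 right and left). The other groups were newborn Egr1-/- (2 libraries), newborn wild type (2), adult Egr1-/- (2) and adult wild type (1). The labels give no exact age for newborns or adults and name no animals for them, so replicates may be technical, and p-values then measure only the spread between these libraries. They speak both of RNAlater and of fixation with glutaraldehyde and formalin, without saying that the sequenced eyes were fixed.

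Collagens are trimeric proteins whose chains wind into a triple helix, and each triplet of residues in the helix opens with glycine. Fibrillar collagens build the tension-bearing fibrils of dermis, sclera, cornea and bone. Type IV chains form the network of basement membranes, which in the eye enclose the lens and underlie the epithelia. Fibril-associated collagens (FACIT) sit on fibrils, and other classes form beaded filaments, hexagonal lattices or anchoring fibrils, span the cell membrane, or carry a much interrupted helix (multiplexins). By class, 11 members are fibrillar, 8 FACIT, 6 type IV, 3 hexagonal network, 3 transmembrane, 2 beaded filament, 2 multiplexin and 1 anchoring fibril, and Col28a1 stands alone. Several collagens, Col6a3 and Col21a1 among them, are not analysed here.

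Reads in transcripts ran from 20334849 to 43907093 per library. Each of the 37 members had reads in all 15 libraries and passed the filter on low counts in every comparison. Levels are RPKM, the read count divided by exon length and library size, after TMM scaling over the 15 libraries. Tests are edgeR's quasi-likelihood tests on the counts, with Benjamini-Hochberg adjustment over all genes tested, and a gene passed at an adjusted p below 0.05. Differences are log2 fold changes ± SE. Values of a group are listed by replicate number, and those of day 3 eyes in the order of eyes given above. Egr1 itself went against the labels. It stood at 214 and 274 CPM (counts scaled to library size) in newborn eyes labelled Egr1-/-, against 46.1 and 60.7 CPM in newborn wild types. Adult eyes labelled Egr1-/- had 256 and 184 CPM, against 33.0 CPM in the adult wild type. At day 3 it had 161, 297, 341 and 367 CPM in open eyes and 157 and 221 CPM in closed eyes labelled Egr1-/-, against 99.3 and 110.3 CPM in the Egr1+/- eyes. Eyes labelled Egr1-/- are therefore called labelled knockouts, and directions follow the labels. Whole-transcript counts cannot tell an intact allele from a disrupted one that is still transcribed. Libraries also differed in tissue content. Cryaa, a lens crystallin, had 250.2 and 37203 CPM in the newborn labelled knockouts, against 36243 and 40073 CPM in the wild types. Krt12, a keratin of the corneal epithelium, had 2.64 and 3860.5 CPM in the adult labelled knockouts, against 6411 CPM in the wild type. In bulk samples such as these, fewer cells of a type and less RNA per cell cannot be told apart.

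Collagen levels were led by the chains of type I and type III fibrils. Averaged over the 15 libraries, Col1a1 stood at 1226 RPKM, Col1a2 at 543 RPKM and Col3a1 at 371 RPKM. The chains of type VI and the main pair of type IV came next, with Col6a2 at 189.9 RPKM, Col6a1 at 158 RPKM, Col4a1 at 148 RPKM and Col4a2 at 143 RPKM. The ranges of these neighbours over libraries overlapped. At the low end were Col28a1 (0.349 RPKM, fewest reads in a library 5) and Col19a1 (0.260 RPKM, fewest reads 2). The 37 genes together took 3.56% and 2.23% of reads in newborn labelled knockouts, against 0.924% and 1.18% in newborn wild types. At day 3 they took 1.88%, 1.37%, 1.60% and 3.05% in open eyes, 1.68% and 2.25% in closed labelled-knockout eyes and 2.06% and 1.32% in closed heterozygous eyes. In adults they took 0.362% and 0.283% in labelled knockouts, against 0.285% in the wild type. Col1a1, Col1a2 and Col3a1 supplied 34.0% to 48.4% of collagen reads in adults and 56.1% to 71.9% in the other libraries.

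**Figure D1:**
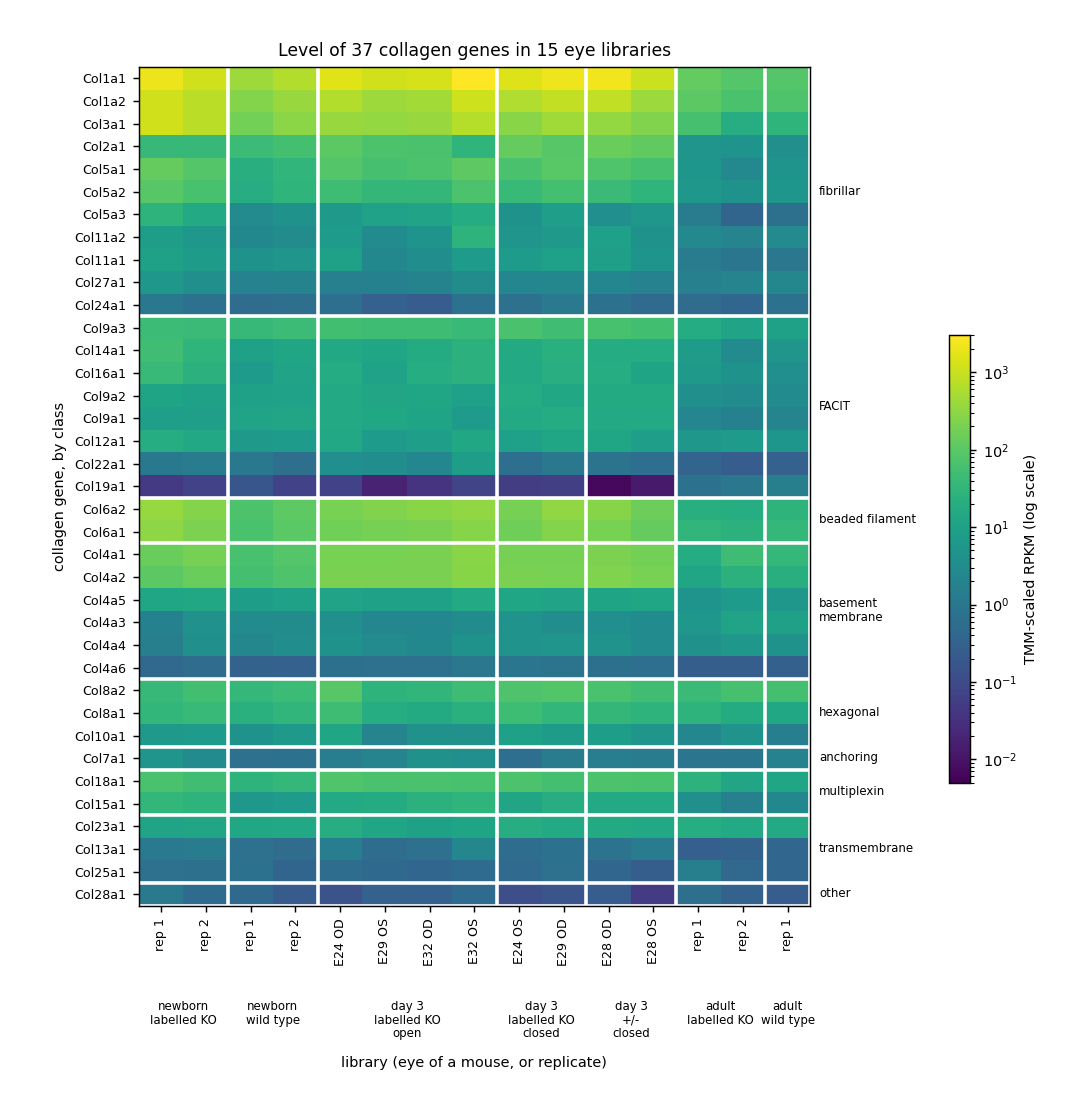
Level of each of the 37 collagen genes (rows, grouped by class) in each of the 15 libraries (columns, grouped by stage and label), as colour on a log scale of TMM-scaled RPKM. Col1a1, Col1a2 and Col3a1 form the brightest rows before adulthood, most fibrillar rows are darker in the 3 adult columns, and Col19a1 is brighter there.

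The coding sequences show the repeat that defines the family and the point at which classes differ. A stretch of Col1a2, the second chain of type I collagen, and of Col4a1, a basement membrane chain, are set side by side with each glycine codon that opens a triplet in capitals. Both were read 5′ to 3′ on the gene's strand from the longest reading frame of the matched GENCODE M21 transcript. Col1a2 (chromosome 6) is shown from codon 127 to codon 162 and Col4a1 (chromosome 8) from codon 148 to codon 183, where 10 codons without the repeat separate 2 runs.
Col1a2: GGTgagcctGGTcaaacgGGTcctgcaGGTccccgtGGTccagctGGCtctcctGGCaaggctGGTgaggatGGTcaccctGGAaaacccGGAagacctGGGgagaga
Col4a1: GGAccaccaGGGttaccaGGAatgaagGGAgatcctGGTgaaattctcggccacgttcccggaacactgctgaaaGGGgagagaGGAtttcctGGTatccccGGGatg
Among the 36 members with a matched transcript (Col12a1 was not matched), the longest unbroken run was 338 triplets in Col1a1, 339 in Col1a2, 339 in Col2a1 and 344 in Col3a1. Col24a1 (216) and Col27a1 (217) had the shortest of the fibrillar genes. The type IV chains had 39 to 66, the type VI chains 87 each, the type IX chains 113 each, and Col7a1 75.

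Col1a1, which encodes the main chain of type I collagen, stood at 2039.6 and 1147 RPKM in newborn labelled knockouts, against 426 and 635 RPKM in newborn wild types. For Col1a1, day 3 levels were 1581, 1129, 1265 and 2937 RPKM in open eyes, 1479.8 and 2089 RPKM in closed labelled-knockout eyes and 2313 and 1049 RPKM in closed heterozygous eyes. It stood at 124 and 86.2 RPKM in adult labelled knockouts, against 84.4 RPKM in the adult wild type. All adult libraries lay below all others, and day 3 eyes overlapped the newborn labelled knockouts but not the newborn wild types. Col1a2, its partner chain, stood at 1125 and 753 RPKM in newborn labelled knockouts, against 254 and 379 RPKM in newborn wild types. For Col1a2, day 3 levels were 654, 432, 469.9 and 1107 RPKM in open eyes, 612 and 867 RPKM in closed labelled-knockout eyes and 843 and 409.5 RPKM in closed heterozygous eyes. It stood at 103 and 67.4 RPKM in adult labelled knockouts, against 71.5 RPKM in the adult wild type. Col3a1, the chain of type III collagen in stretchy tissue, stood at 1167 and 748 RPKM in newborn labelled knockouts, against 175 and 290.3 RPKM in newborn wild types. For Col3a1, day 3 levels were 376, 354, 388 and 665 RPKM in open eyes, 281 and 439 RPKM in closed labelled-knockout eyes and 345 and 237 RPKM in closed heterozygous eyes. It stood at 58.8 and 19.5 RPKM in adult labelled knockouts, against 28.7 RPKM in the adult wild type. For each of these 3 genes, the left eye of E32 was the highest of the 8 day 3 eyes.

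Type VI collagen makes beaded filaments around cells. Col6a1, one of its chains, stood at 319 and 218 RPKM in newborn labelled knockouts, against 64.5 and 99.0 RPKM in newborn wild types. For Col6a1, day 3 levels were 169, 187, 209.7 and 268 RPKM in open eyes, 158 and 256 RPKM in closed labelled-knockout eyes and 195 and 131 RPKM in closed heterozygous eyes. It stood at 30.2 and 24.2 RPKM in adult labelled knockouts, against 34.6 RPKM in the adult wild type. Col6a2, another, stood at 361 and 254 RPKM in newborn labelled knockouts, against 68.0 and 111 RPKM in newborn wild types. For Col6a2, day 3 levels were 197, 242, 276 and 326 RPKM in open eyes, 188 and 331 RPKM in closed labelled-knockout eyes and 271 and 155 RPKM in closed heterozygous eyes. It stood at 22.1 and 19.3 RPKM in adult labelled knockouts, against 27.6 RPKM in the adult wild type. For both, the adult libraries were lowest and the newborn wild types next lowest.

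Col4a1, a chain of nearly every basement membrane, stood at 142 and 183 RPKM in newborn labelled knockouts, against 63.7 and 84.2 RPKM in newborn wild types. For Col4a1, day 3 levels were 201, 195, 202 and 288.4 RPKM in open eyes, 188 and 184 RPKM in closed labelled-knockout eyes and 213 and 178 RPKM in closed heterozygous eyes. It stood at 18.4 and 49.0 RPKM in adult labelled knockouts, against 36.1 RPKM in the adult wild type. Col4a2, which pairs with it, stood at 104 and 143 RPKM in newborn labelled knockouts, against 55.1 and 72.9 RPKM in newborn wild types. For Col4a2, day 3 levels were 205, 208, 205 and 267 RPKM in open eyes, 204 and 197 RPKM in closed labelled-knockout eyes and 231 and 197 RPKM in closed heterozygous eyes. It stood at 13.0 and 24.9 RPKM in adult labelled knockouts, against 22.0 RPKM in the adult wild type. All 8 day 3 eyes lay above all newborn and adult libraries for Col4a2. Col4a5, a chain of specialised basement membranes encoded on the X chromosome, stood at 12.9 and 14.1 RPKM in newborn labelled knockouts, against 7.75 and 10.3 RPKM in newborn wild types. For Col4a5, day 3 levels were 11.5, 9.60, 10.1 and 15.1 RPKM in open eyes, 13.1 and 11.2 RPKM in closed labelled-knockout eyes and 11.8 and 12.9 RPKM in closed heterozygous eyes. It stood at 4.85 and 7.05 RPKM in adult labelled knockouts, against 5.97 RPKM in the adult wild type. The adult libraries were lowest for each of these chains.

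Among FACIT genes the most abundant was a cartilage and vitreous chain. Col9a3, which sits on type II fibrils, stood at 42.8 and 41.6 RPKM in newborn labelled knockouts, against 37.2 and 43.3 RPKM in newborn wild types. For Col9a3, day 3 levels were 53.0, 48.2, 49.0 and 38.9 RPKM in open eyes, 66.7 and 51.9 RPKM in closed labelled-knockout eyes and 60.98 and 53.9 RPKM in closed heterozygous eyes. It stood at 17.8 and 11.5 RPKM in adult labelled knockouts, against 9.93 RPKM in the adult wild type. Col14a1, which binds type I fibrils, stood at 51.8 and 28.7 RPKM in newborn labelled knockouts, against 9.39 and 13.3 RPKM in newborn wild types. For Col14a1, day 3 levels were 14.7, 13.5, 17.1 and 24.8 RPKM in open eyes, 16.3 and 23.5 RPKM in closed labelled-knockout eyes and 17.8 and 17.9 RPKM in closed heterozygous eyes. It stood at 7.42 and 2.72 RPKM in adult labelled knockouts, against 5.11 RPKM in the adult wild type. Col16a1, a minor collagen of dermis and cartilage, stood at 39.0 and 24.6 RPKM in newborn labelled knockouts, against 7.06 and 11.2 RPKM in newborn wild types. For Col16a1, day 3 levels were 18.4, 10.5, 19.0 and 25.0 RPKM in open eyes, 15.7 and 20.9 RPKM in closed labelled-knockout eyes and 18.8 and 11.9 RPKM in closed heterozygous eyes. It stood at 6.67 and 4.21 RPKM in adult labelled knockouts, against 3.61 RPKM in the adult wild type. Col9a3 overlapped between the newborn labels and was lowest in adults, while Col14a1 and Col16a1 were also higher in newborn labelled knockouts than in newborn wild types.

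The hexagonal network genes include the collagens of Descemet's membrane, beneath the corneal stroma. Col8a2, a chain of that membrane, stood at 37.9 and 52.2 RPKM in newborn labelled knockouts, against 36.0 and 44.2 RPKM in newborn wild types. For Col8a2, day 3 levels were 90.6, 26.7, 29.5 and 47.3 RPKM in open eyes, 73.9 and 79.7 RPKM in closed labelled-knockout eyes and 67.2 and 51.7 RPKM in closed heterozygous eyes. It stood at 42.3 and 59.2 RPKM in adult labelled knockouts, against 55.3 RPKM in the adult wild type. Col8a1, its partner, stood at 31.7 and 40.0 RPKM in newborn labelled knockouts, against 23.8 and 30.1 RPKM in newborn wild types. For Col8a1, day 3 levels were 48.7, 18.5, 16.0 and 23.8 RPKM in open eyes, 45.0 and 32.6 RPKM in closed labelled-knockout eyes and 34.3 and 26.7 RPKM in closed heterozygous eyes. It stood at 26.7 and 17.3 RPKM in adult labelled knockouts, against 13.6 RPKM in the adult wild type. Col10a1, a collagen of hypertrophic cartilage, stood at 6.34 and 6.98 RPKM in newborn labelled knockouts, against 4.48 and 6.54 RPKM in newborn wild types. For Col10a1, day 3 levels were 13.4, 2.08, 4.05 and 3.88 RPKM in open eyes, 10.1 and 7.33 RPKM in closed labelled-knockout eyes and 7.91 and 5.14 RPKM in closed heterozygous eyes. It stood at 2.38 and 4.66 RPKM in adult labelled knockouts, against 1.42 RPKM in the adult wild type. Their day 3 values were lowest in the open eyes of E29 and E32, and the adult values of Col8a2 overlapped the newborn ones.

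The multiplexins carry endostatin-like ends. Col18a1, a basement membrane collagen of the eye, stood at 67.0 and 51.8 RPKM in newborn labelled knockouts, against 27.7 and 36.0 RPKM in newborn wild types. For Col18a1, day 3 levels were 78.6, 66.3, 66.1 and 63.8 RPKM in open eyes, 70.0 and 56.1 RPKM in closed labelled-knockout eyes and 68.0 and 67.2 RPKM in closed heterozygous eyes. It stood at 26.0 and 12.4 RPKM in adult labelled knockouts, against 13.3 RPKM in the adult wild type. Col15a1, a basement membrane collagen of vessels and muscle, stood at 32.5 and 27.7 RPKM in newborn labelled knockouts, against 6.02 and 7.19 RPKM in newborn wild types. For Col15a1, day 3 levels were 15.3, 17.4, 24.7 and 28.7 RPKM in open eyes, 12.3 and 20.4 RPKM in closed labelled-knockout eyes and 15.1 and 15.2 RPKM in closed heterozygous eyes. It stood at 3.82 and 1.59 RPKM in adult labelled knockouts, against 2.47 RPKM in the adult wild type. Both were lowest in adults. The transmembrane members were low, apart from Col23a1. Col23a1, a cell-surface collagen, stood at 11.3 and 12.7 RPKM in newborn labelled knockouts, against 13.6 and 14.5 RPKM in newborn wild types. For Col23a1, day 3 levels were 19.8, 13.0, 10.2 and 11.7 RPKM in open eyes, 20.0 and 15.2 RPKM in closed labelled-knockout eyes and 16.3 and 14.6 RPKM in closed heterozygous eyes. It stood at 18.5 and 15.4 RPKM in adult labelled knockouts, against 15.7 RPKM in the adult wild type. It had the narrowest spread of all members, 1.96-fold from lowest to highest library. Col13a1, a collagen of cell adhesion sites, stood at 1.13 and 1.23 RPKM in newborn labelled knockouts, against 0.689 and 0.516 RPKM in newborn wild types. For Col13a1, day 3 levels were 1.37, 0.561, 0.674 and 2.38 RPKM in open eyes, 0.549 and 0.717 RPKM in closed labelled-knockout eyes and 0.810 and 1.24 RPKM in closed heterozygous eyes. It stood at 0.273 and 0.335 RPKM in adult labelled knockouts, against 0.411 RPKM in the adult wild type. Col25a1, a collagen of neurons, stood at 0.666 and 0.638 RPKM in newborn labelled knockouts, against 0.701 and 0.355 RPKM in newborn wild types. For Col25a1, day 3 levels were 0.554, 0.453, 0.375 and 0.491 RPKM in open eyes, 0.477 and 0.677 RPKM in closed labelled-knockout eyes and 0.377 and 0.256 RPKM in closed heterozygous eyes. It stood at 1.51 and 0.426 RPKM in adult labelled knockouts, against 0.381 RPKM in the adult wild type. Col13a1 was highest in the left eye of E32, and Col25a1 in adult labelled-knockout replicate 1. Col28a1, which stands outside the classes, stood at 1.12 and 0.499 RPKM in newborn labelled knockouts, against 0.438 and 0.212 RPKM in newborn wild types. For Col28a1, day 3 levels were 0.142, 0.295, 0.297 and 0.491 RPKM in open eyes, 0.116 and 0.157 RPKM in closed labelled-knockout eyes and 0.240 and 0.0518 RPKM in closed heterozygous eyes. It stood at 0.614 and 0.317 RPKM in adult labelled knockouts, against 0.239 RPKM in the adult wild type. Its highest library was newborn labelled-knockout replicate 1.

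In newborn eyes, 13 of 37 collagen genes were higher in labelled knockouts than in wild types and 0 were lower, with Col7a1, both type VI genes and 6 of 11 fibrillar genes among those that rose. Over the 17592 genes tested, 14.6% rose and 9.38% fell, 24% in either direction. The median member differed by 0.94 on the log2 scale, and the median gene by -0.07. At an unadjusted p below 0.05, 20 members were higher and 2 lower, where 3697 of the 17592 genes were higher and 2799 lower. Both labelled knockouts lay above both wild types for 26 members and below them for 3 (Col2a1, Col9a1 and Col23a1), where 33.8% of all genes did so in each direction. By class, 6 of 11 fibrillar genes rose, 3 of 8 FACIT genes, 2 of 2 beaded filament genes, 1 of 2 multiplexins and Col7a1, the 1 anchoring fibril gene. The fibrillar genes that did not pass were Col1a1, Col1a2, Col2a1, Col3a1 and Col24a1. Of the 6 type IV, 3 hexagonal and 3 transmembrane genes 0 passed, with 2, 0 and 1 higher at an unadjusted p below 0.05. By DESeq2 the whole family had 19 higher and 2 lower, where 5270 of the 17592 genes passed in either direction.

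Col7a1, whose protein forms the anchoring fibrils that fasten epithelial basement membrane to dermis, had the smallest p. It stood at 5.27 and 2.96 RPKM in newborn labelled knockouts, against 0.682 and 0.772 RPKM in newborn wild types (2.49 ± 0.29, edgeR adjusted p = 0.00330, n = 2 each). The labelled knockouts lay above the wild types without overlap. Its promoter window in RefSeq (GRCm38.p6, chr9:108953336-108953635, plus strand) is shown because the gene recurs in the comparisons. Capitals mark the GC box, GGGCGG, and the CCAAT box, searched on both strands.
Col7a1 promoter: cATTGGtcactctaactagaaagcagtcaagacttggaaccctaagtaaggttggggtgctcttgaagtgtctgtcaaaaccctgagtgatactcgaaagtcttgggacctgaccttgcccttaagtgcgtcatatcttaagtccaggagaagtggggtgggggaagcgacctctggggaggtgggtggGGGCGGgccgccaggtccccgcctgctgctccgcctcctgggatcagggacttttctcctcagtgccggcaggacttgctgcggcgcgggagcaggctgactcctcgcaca
Col12a1, a FACIT collagen on type I fibrils, stood at 19.0 and 14.8 RPKM in newborn labelled knockouts, against 6.32 and 6.94 RPKM in newborn wild types (1.34 ± 0.21, edgeR adjusted p = 0.00581). Col15a1, with the values above, rose by 2.18 ± 0.38 (edgeR adjusted p = 0.00792). Both were higher without overlap. Col27a1, a fibrillar collagen of cartilage, stood at 5.66 and 3.78 RPKM in newborn labelled knockouts, against 1.83 and 1.89 RPKM in newborn wild types (1.33 ± 0.24, edgeR adjusted p = 0.00922). Col5a2, a chain of the type V collagen that limits fibril width, stood at 91.1 and 62.6 RPKM in newborn labelled knockouts, against 19.9 and 28.3 RPKM in newborn wild types (1.66 ± 0.31, edgeR adjusted p = 0.0104). The other 8 that rose were Col5a1, Col5a3, Col6a1, Col6a2, Col11a1, Col11a2, Col14a1 and Col16a1, with log2 fold changes of 0.86 to 2.56.

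The main chains of type I and type III collagen did not pass. The differences were 1.58 ± 0.53 for Col1a1 (edgeR adjusted p = 0.0705), 1.56 ± 0.47 for Col1a2 (edgeR adjusted p = 0.0523) and 2.03 ± 0.63 for Col3a1 (edgeR adjusted p = 0.0572). Col4a1 differed by 1.13 ± 0.48 and Col4a2 by 0.94 ± 0.38, also without passing. Col2a1, the main collagen of vitreous and cartilage, stood at 36.8 and 36.5 RPKM in newborn labelled knockouts, against 44.5 and 56.6 RPKM in newborn wild types (-0.47 ± 0.19, edgeR adjusted p = 0.124). Its ratio to Col1a1 was 0.0180 and 0.0318 in labelled knockouts, against 0.105 and 0.0891 in wild types. Col9a1, found on type II fibrils, stood at 8.29 and 8.54 RPKM in newborn labelled knockouts, against 11.2 and 12.7 RPKM in newborn wild types (-0.51 ± 0.19, edgeR adjusted p = 0.0977). A p above the threshold does not show that these levels were alike.

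The number of newborn calls rested on single wild-type libraries. Without wild-type replicate 1, 0 members passed with edgeR (14 at an unadjusted p below 0.05), as did 0 of all genes, and without wild-type replicate 2, 1 member passed, while the median member differed by 0.93 and 0.99. Markers of several tissues moved in the same comparison, and their part in the collagen differences was not tested. Of 13 fibroblast and mesenchyme markers 10 rose, and their summed level was 1722 to 2341 CPM in labelled knockouts, against 539 to 802 CPM in wild types. Of 11 epidermis markers 8 rose, with sums of 7067 to 8144 CPM in labelled knockouts, against 562 to 1322 CPM in wild types. Of 10 pericyte and smooth muscle markers 9 rose, with sums of 1774 to 2497 CPM in labelled knockouts, against 497 to 679 CPM in wild types. All 13 rod photoreceptor markers fell, with sums of 107 to 317 CPM in labelled knockouts, against 1260.5 to 1494 CPM in wild types. Of 10 bone markers tested 3 rose and 1 fell, with sums of 145 to 198 CPM in labelled knockouts, against 37.2 to 38.6 CPM in wild types. The bone gene Mepe was at 0 in all 4 newborn libraries. No marker of the fibroblast, epidermis, pericyte or rod lists was at 0 in every library of a newborn group.

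**Figure D2:**
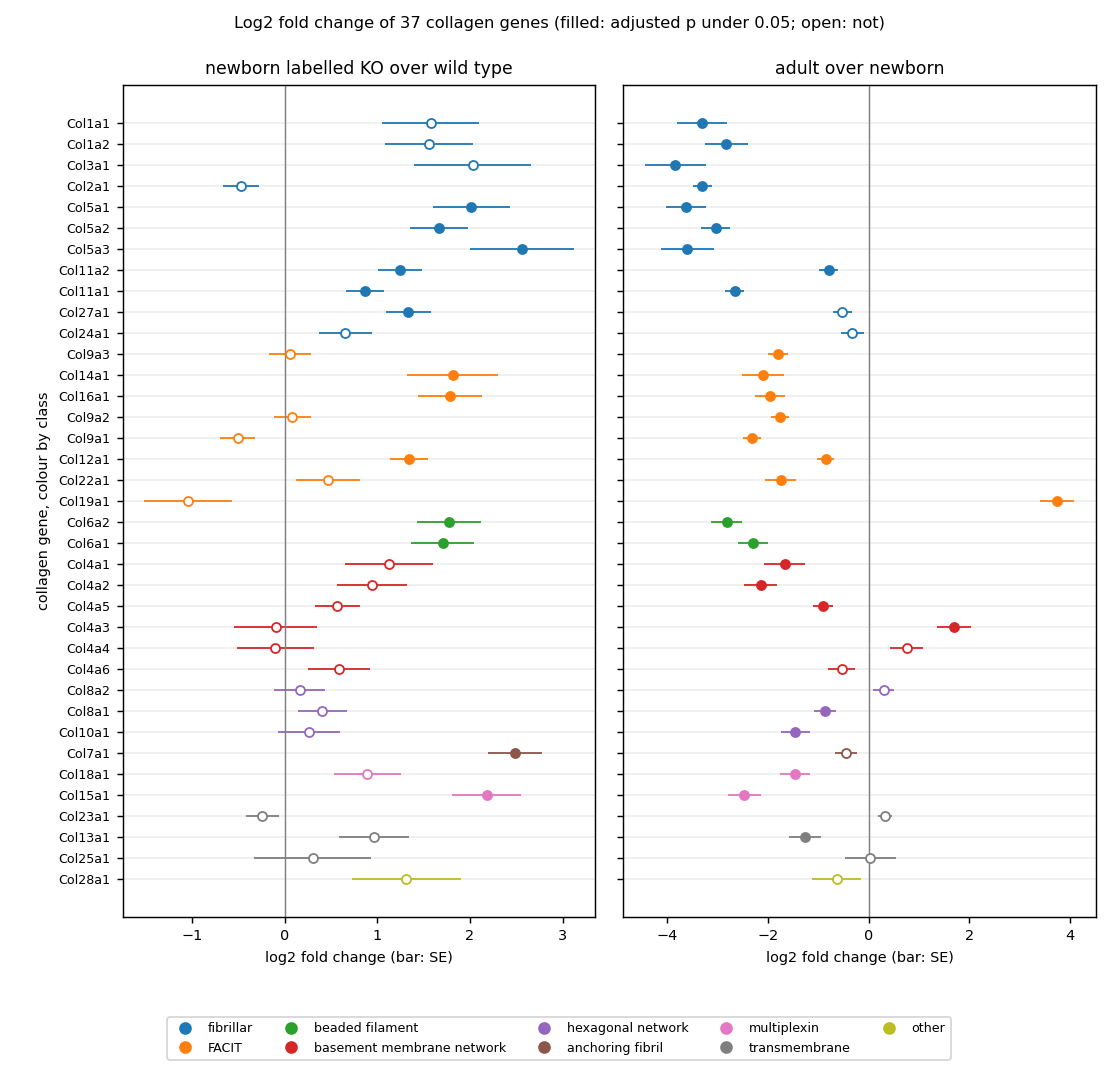
Log2 fold change of each collagen gene (points, bars are SE, filled where the adjusted p was below 0.05, coloured by class) for newborn labelled knockout over wild type (left) and adult over newborn (right). In the left panel 13 genes are filled, all to the right of 0, and in the right panel 26 are filled to the left of 0 and 2, Col19a1 and Col4a3, to the right.

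Genes that make, secrete, process, cross-link and bind collagen were counted in 6 lists, chosen with earlier results of these data known. In newborn labelled knockouts 29 of 53 tested rose and 1 fell, where 14.6% of all genes rose and 9.38% fell, with a median of 1.00. These calls rest on the same libraries: 0 of all genes passed without newborn wild-type replicate 1. In the list of prolyl and lysyl hydroxylases, which also holds Glt25d2, a collagen galactosyltransferase, 8 of 14 genes rose. Leprel1, a prolyl 3-hydroxylase, was at 1.35 ± 0.18 and P4ha3, a subunit of prolyl 4-hydroxylase, at 1.70 ± 0.26, while Glt25d2 fell by 0.93. Of the lysyl oxidases, which cross-link fibrils, 4 of 5 rose, with Loxl2 at 2.01 ± 0.27 and Loxl4 at 1.53 ± 0.22. Of the procollagen proteinases and their enhancers 4 of 8 rose, with Adamts14 at 2.23 ± 0.30 and Adamts2 at 1.95 ± 0.31. Of the small proteoglycans that bind collagen 5 of 9 rose, with Lum at 1.37 ± 0.25 and Bgn at 1.76 ± 0.37. Of the chaperones and secretion genes 3 of 8 rose, with Creb3l1 at 1.70 ± 0.30 and Fkbp14 at 0.96 ± 0.18. Of the receptors 5 of 9 rose, with Ddr2 at 1.89 ± 0.25 and Mrc2 at 1.78 ± 0.32. In adult over newborn eyes 8 of 53 rose and 31 fell, where 25.3% of all genes rose and 24% fell. In the adult, open eyelid and heterozygous comparisons 0 passed with edgeR.

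Among adult eyes, 2 labelled knockouts against 1 wild type, 0 of 37 members passed with edgeR and 0 with DESeq2, and 0% of 17592 genes passed with edgeR. At an unadjusted p below 0.05 there were 2 members, Col10a1 higher and Col7a1 lower, where 409 of the 17592 genes were higher and 97 lower. Labelled knockouts lay above the wild type for 10 members and below it for 9, where 26.3% and 31.8% of all genes did. The smallest p on the higher side were those of Col10a1 (1.33 ± 0.46), Col8a1 (0.72 ± 0.34) and Col9a3 (0.59 ± 0.29), with edgeR adjusted p = 1 for each. On the lower side were Col7a1 (-1.01 ± 0.33), Col24a1 (-0.58 ± 0.35) and Col19a1 (-0.76 ± 0.46), with edgeR adjusted p = 1 for each. Col7a1 stood at 0.866 and 0.925 RPKM in adult labelled knockouts, against 1.84 RPKM in the adult wild type. Col24a1, a fibrillar collagen of bone, stood at 0.524 and 0.402 RPKM in adult labelled knockouts, against 0.707 RPKM in the adult wild type. With 1 wild type, the spread within that group was taken from the other groups.

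A test of the difference between ages in the genotype effect called 1 of 37 members, Col7a1, where 1.8% of all genes were called lower and 0.995% higher, 2.8% in either direction. The Col7a1 effect was -1.01 in adults and 2.49 in newborns, a difference of -3.50 ± 0.43, edgeR adjusted p = 0.0307. Without newborn wild-type replicate 1 the difference was -3.46 (edgeR adjusted p = 0.19), and without newborn wild-type replicate 2 it was -3.63 (edgeR adjusted p = 0.167). At an unadjusted p below 0.05, 12 members were lower and 1 (Col2a1) higher, where 2055 of the 17592 genes were lower and 1583 higher. How many members passed at an adjusted p below 0.05 changed when single libraries were left out. In those fits the median member differed by -1.13 to -0.8, against -1.03 in the main fit.

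Adult eyes had less collagen message than newborn eyes in most classes. With both genotype labels weighted equally, 26 of 37 members fell and 2 rose in adults, where 24% of all genes fell and 25.3% rose, 49.2% in either direction. The median member changed by -1.67 and the median gene by -0.04. By class, 9 of 11 fibrillar genes fell (median -3.03), 7 of 8 FACIT genes, 3 of 6 type IV genes, 2 of 3 hexagonal genes, 2 of 2 beaded filament genes, 2 of 2 multiplexins and 1 of 3 transmembrane genes. The smallest p among the falls was that of Col2a1, which stood at 5.26 and 4.87 RPKM in adult labelled knockouts and 3.87 RPKM in the adult wild type, against 36.8 and 36.5 RPKM and 44.5 and 56.6 RPKM in the newborn labelled knockouts and wild types (-3.30 ± 0.19, edgeR adjusted p = 2.72e-05). Next by p came Col11a1 (-2.66 ± 0.19), which shares fibrils with it, Col9a1 (-2.31 ± 0.17), Col5a2 (-3.03 ± 0.29) and Col9a2 (-1.76 ± 0.17). Col1a1 fell by 3.31 and Col3a1 fell by 3.83. All adults lay below all newborns for 23 members and above them for 4 (Col4a3, Col4a4, Col19a1 and Col23a1), where 23.9% and 23.5% of all genes did. Fewer members passed with wild types alone, 1 adult and 2 newborn libraries. Over all alternatives run, the median member changed by -2.08 to -1.28.

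Col19a1 and Col4a3 rose. Col19a1, a FACIT collagen known in muscle and brain, stood at 0.764 and 0.961 RPKM in adult labelled knockouts and 1.49 RPKM in the adult wild type, against 0.0474 and 0.0692 RPKM and 0.171 and 0.0689 RPKM in the newborn labelled knockouts and wild types (3.74 ± 0.34, edgeR adjusted p = 0.000164). The 8 day 3 eyes held 0.00665 to 0.0720 RPKM. Col4a3, a chain of specialised basement membranes, stood at 5.81 and 11.1 RPKM in adult labelled knockouts and 10.2 RPKM in the adult wild type, against 1.60 and 3.92 RPKM and 2.84 and 3.03 RPKM in the newborn labelled knockouts and wild types (1.70 ± 0.35, edgeR adjusted p = 0.00585). In both genes every adult library was above every younger one. The 9 members that did not pass were Col4a4, Col4a6, Col7a1, Col8a2, Col23a1, Col24a1, Col25a1, Col27a1 and Col28a1. Rod photoreceptor markers rose in this contrast for 13 of 13 genes, with sums of 25676 to 50834 CPM in adults, against 107 to 1494 CPM in newborns, and their part in the collagen falls was not tested.

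The 8 day 3 eyes were also set beside both other stages. All 8 lay above all 4 newborn libraries for 2 members (Col4a2 and Col4a6) and below them for 0, where 9.04% and 9.8% of all genes did. They lay above all 3 adults for 25 members and below them for 2 (Col4a3 and Col19a1), where 25.8% and 26.6% of all genes did. Age and sample set cannot be told apart here.

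**Figure D3:**
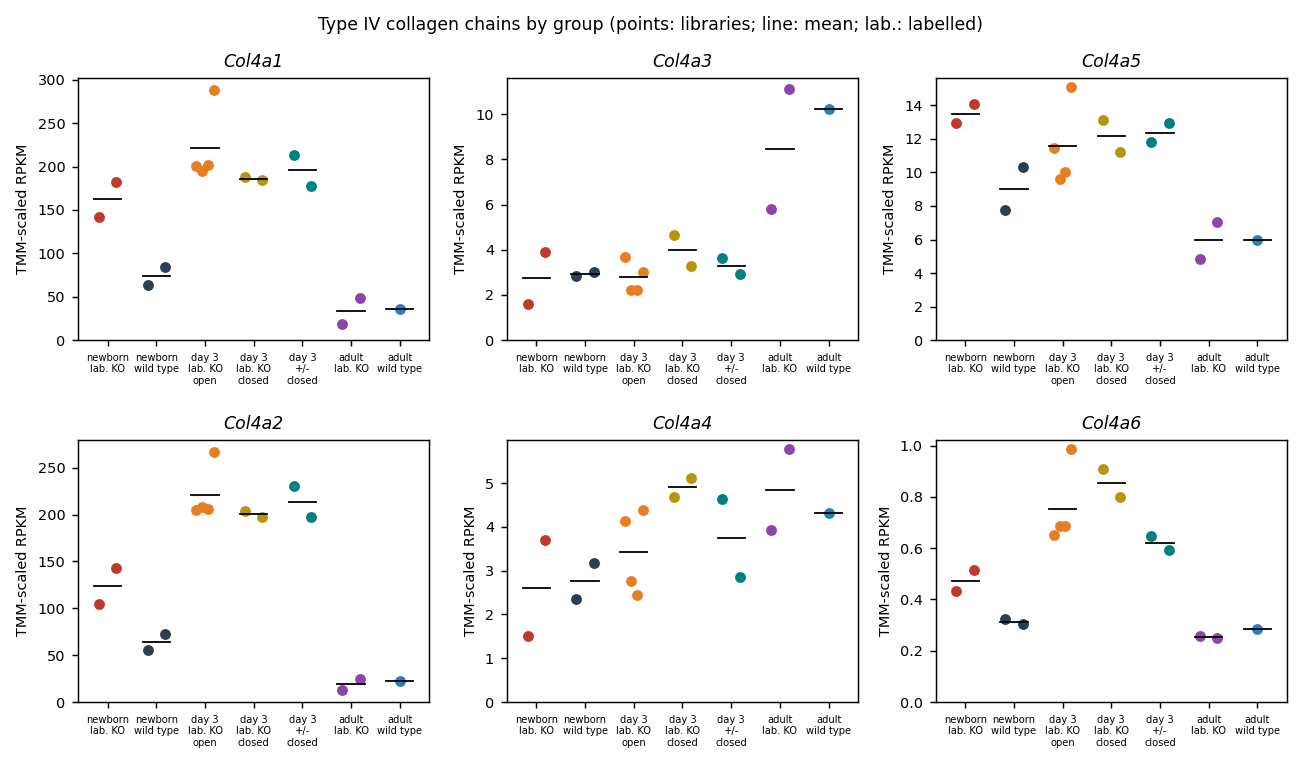
Level of the 6 type IV chains in each library (points, lines are group means, y axes start at 0 and differ by panel). Col4a1 and Col4a2 are low in the 3 adult libraries, and Col4a3 is highest there.

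For some partner chains the ratio of levels was separated between the newborn, day 3 and adult libraries, and for others it was not. Col1a1 over Col1a2 was 1.52 to 1.81 in newborns, 2.41 to 2.74 at day 3 and 1.18 to 1.28 in adults, without overlap. Col5a1 over Col5a2 was 1.08 to 1.45 in newborns, 1.56 to 2.13 at day 3 and 0.620 to 0.879 in adults, also without overlap. Col4a1 over Col4a2 was 1.15 to 1.36 in newborns, 0.905 to 1.08 at day 3 and 1.41 to 1.97 in adults. Day 3 eyes and adults therefore lay on opposite sides of the newborns for all 3 pairs. Col4a3 over Col4a1, which belong to different networks, was 0.0113 to 0.0446 in newborns, 0.0105 to 0.0248 at day 3 and 0.227 to 0.316 in adults. Col6a2 over Col6a1 was 1.05 to 1.17 in newborns, 1.17 to 1.39 at day 3 and 0.733 to 0.798 in adults. Adults lay apart from the younger stages in both. Other pairs overlapped between stages or spread widely within one. Col11a1 over Col11a2 was 1.24 to 1.74 in newborns, 0.259 to 1.43 at day 3 and 0.350 to 0.460 in adults. Col8a2 over Col8a1, the chains of Descemet's membrane, was 1.19 to 1.51 in newborns, 1.44 to 2.45 at day 3 and 1.58 to 4.07 in adults. Col4a5 over Col4a6 was 24.1 to 34.2 in newborns, 14.0 to 21.8 at day 3 and 18.8 to 28.1 in adults. In each of these 3 pairs, some stages overlapped. Col4a3 over Col4a4 was 0.954 to 1.20 in newborns, 0.640 to 1.03 at day 3 and 1.48 to 2.38 in adults. Col9a3 over Col9a1 was 3.34 to 5.16 in newborns, 2.94 to 5.43 at day 3 and 4.60 to 7.97 in adults. Col9a3 over Col9a2 was 3.28 to 4.64 over all 15 libraries. Ratios are of levels per length and were not tested. Stage and sample set cannot be told apart for them, and no share over other gene pairs was taken.

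**Figure D4:**
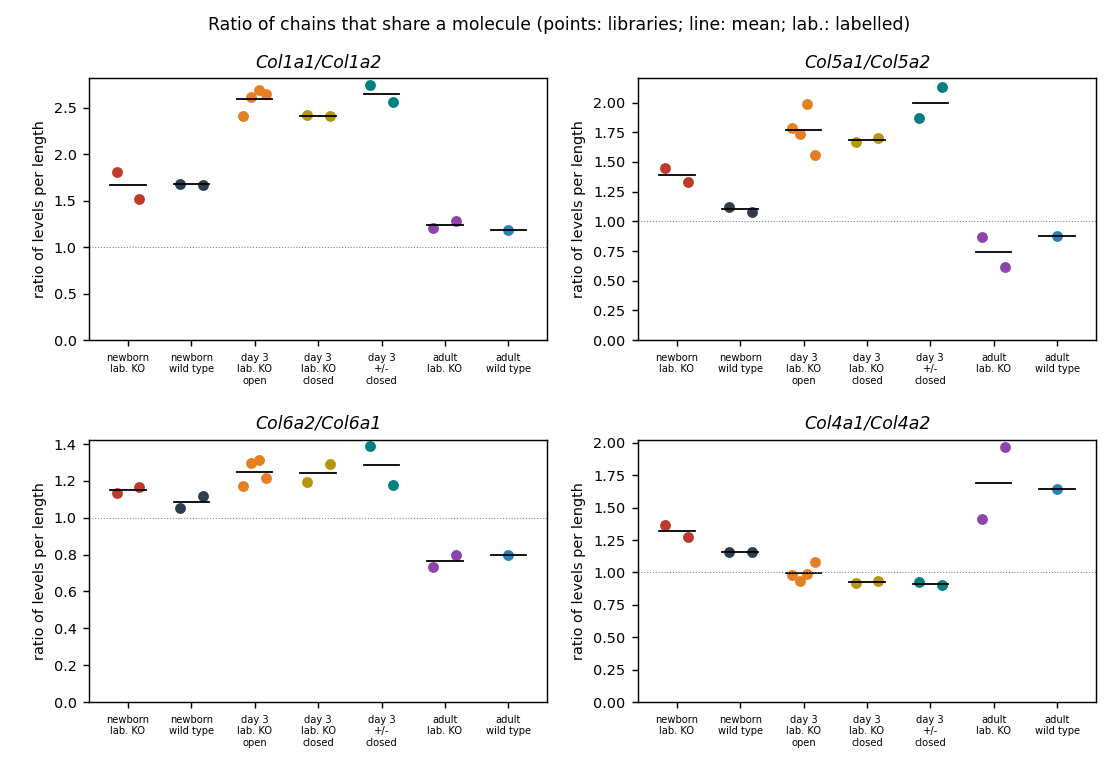
Ratio of levels per length for 4 chain pairs in each library (points, lines are group means, y axes start at 0). Day 3 eyes lie at 2.41 to 2.74 for Col1a1 over Col1a2, above newborns and adults, and adults lie below 1 for Col6a2 over Col6a1.

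Col4a1 and Col4a2 lie head to head on chromosome 8, so their promoter windows overlap, by 78 bases, and are shown together from RefSeq (GRCm38.p6), each 5′ to 3′ in its gene's direction. The windows are chr8:11312777-11313076 (minus strand) for Col4a1 and chr8:11312555-11312854 (plus strand) for Col4a2. Capitals mark the GC box, the CCAAT box and the EGR motif GCGNGGGCG on either strand, and the EGR match runs into a GC box in both.
Col4a1 promoter: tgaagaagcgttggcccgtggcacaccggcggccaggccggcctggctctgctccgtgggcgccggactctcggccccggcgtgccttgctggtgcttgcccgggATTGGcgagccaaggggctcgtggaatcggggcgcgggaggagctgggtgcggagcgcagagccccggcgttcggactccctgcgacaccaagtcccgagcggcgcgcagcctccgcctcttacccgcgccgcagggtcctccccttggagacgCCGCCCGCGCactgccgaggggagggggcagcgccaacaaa
Col4a2 promoter: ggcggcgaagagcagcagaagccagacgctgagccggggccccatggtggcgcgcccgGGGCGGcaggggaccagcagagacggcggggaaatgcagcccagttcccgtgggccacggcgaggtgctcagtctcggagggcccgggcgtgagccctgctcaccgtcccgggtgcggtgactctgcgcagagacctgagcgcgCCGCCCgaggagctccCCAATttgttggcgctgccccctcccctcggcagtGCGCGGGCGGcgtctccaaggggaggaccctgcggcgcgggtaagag
The EGR letters in both windows are the same bases, chr8:11312808-11312816. Of the 29 members in the RefSeq promoter set, 3 (Col4a1, Col4a2 and Col8a1) hold these letters, and 5.55% of the 32851 promoters in the set do. The GC box was found in 19 members (35.7% of all promoters), CCAAT in 11 (37.4%) and TATAAA in 4 (13.6%). A member was counted if any of its windows matched, and Col6a2, Col9a1 and Col18a1 have several windows. The percentages are of single promoter windows, so the measures differ. A match is only a match of letters in the window.

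At day 3, open eyes were compared with closed eyes with the mouse as a block. Only mice E24 and E29 inform the contrast, since both eyes of E32 were open and both of E28 closed. With edgeR 0 of 37 members passed, where 0.457% of 15754 genes were higher and 0.0571% lower, 0.514% in either direction, and DESeq2 called 2. At an unadjusted p below 0.05 there were 2, both higher in open eyes, where 885 of the 15754 genes were higher and 100 lower. Col22a1, a FACIT collagen of tissue junctions such as those of muscle with tendon, stood at 3.56 and 3.38 RPKM in the open eyes of E24 and E29, against 0.579 and 1.04 RPKM in their closed eyes (2.17 ± 0.58, edgeR adjusted p = 0.307). It stood at 2.19 and 7.70 RPKM in the right and left eyes of E32 and at 0.789 and 0.579 RPKM in those of E28. All 4 open eyes thus lay above all 4 closed eyes for this 1 member, and 6.56% of all genes did so. In all open eyes 1 member, Col9a1, was lower, where 4.58% of all genes were. Col22a1 passed with DESeq2 (adjusted p = 0.00771), with only E24 and E29 (edgeR adjusted p = 0.024), without mouse E32 (edgeR adjusted p = 0.0354) and without the block (edgeR adjusted p = 0.0121). The fit without the block treats eyes of the same mouse as independent. In the other alternatives where it was tested, among them leaving out E24 or E29, Col22a1 did not pass.

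Col7a1 stood at 1.35 and 2.06 RPKM in the open eyes of E24 and E29, against 0.586 and 1.26 RPKM in their closed eyes (0.97 ± 0.22, edgeR adjusted p = 0.197), and passed with DESeq2 (adjusted p = 0.023). It stood at 4.01 and 3.52 RPKM in E32 and 1.36 and 1.30 RPKM in E28, so that open and closed eyes overlapped. Next by p among the higher members was Col5a3 (0.50 ± 0.32), a chain of type V collagen. On the lower side were Col14a1 (-0.46 ± 0.23), Col4a3 (-0.43 ± 0.22) and Col27a1 (-0.49 ± 0.27), which was 0.01 with no block. Epidermis marker sums were 3362 to 14284 CPM in open eyes, against 646 to 1329 CPM in closed eyes, and bone sums were 86.8 to 916 CPM in open eyes, against 37.3 to 47.6 CPM in closed eyes. Of 11 epidermis markers 4 rose, and of 11 bone markers 0 passed with edgeR (4 at an unadjusted p below 0.05). Skeletal muscle sums were 4155 and 7243 CPM in the open eyes of E24 and E29, against 2602 and 4873 CPM in their closed eyes, and 7662 and 6261 CPM in the right and left eyes of E32, against 1621 and 3453 CPM in those of E28. Of the 13 muscle markers 0 passed with edgeR (1, Myog, at an unadjusted p below 0.05), and all 13 had a positive log2 fold change. The part of these 3 tissues in the Col22a1 and Col7a1 values was not tested.

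Eyes of 1 mouse with the same eyelid state differed too. In E24, 25 members were higher and 12 lower in the open eye than in the closed one (median log2 ratio 0.11), and in E29 7 were higher and 30 lower (-0.45), with the same direction in both mice for 19 of 37. In E32, with both eyes open, 30 were higher and 7 lower in the left eye than in the right (0.57). In E28, with both closed, 7 were higher and 30 lower in the left eye (-0.36). Members over 2-fold apart numbered 3 in E24, 8 in E29, 9 in E32 and 4 in E28. These within-mouse counts were made for the 37 members only. Without a share over all genes, they do not show a difference particular to collagens. Col11a2, a fibrillar chain of cartilage, stood at 27.7 RPKM in the left eye of E32 and 5.02 RPKM in the right. The bone genes Ibsp and Sp7 stood at 191 and 31.0 CPM in that left eye, against 3.11 and 1.95 CPM in the right eye. Bone marker sums were 916 CPM in the left eye and 167 CPM in the right. Cartilage marker sums went the other way, at 207 CPM in the left eye and 283 CPM in the right. The part of both tissues in the Col11a2 value was not tested.

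**Figure D5:**
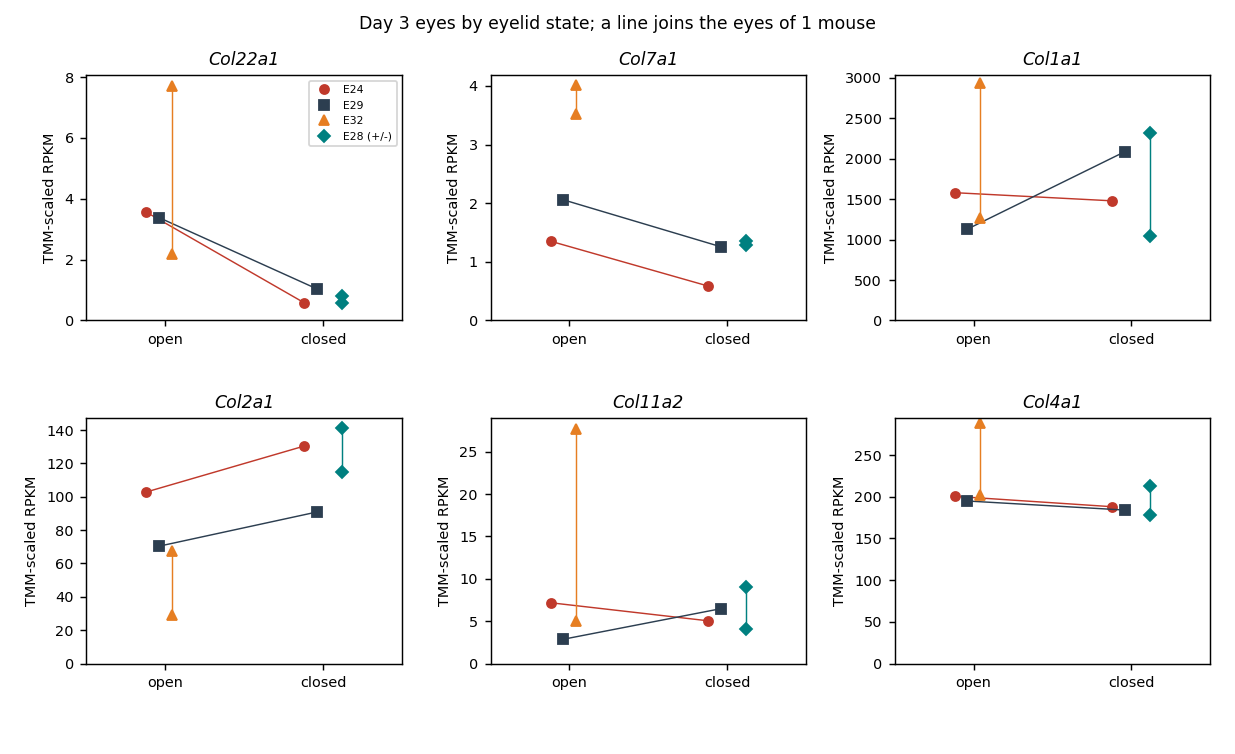
Level of 6 collagen genes in each day 3 eye by eyelid state (points, a line joins the eyes of 1 mouse, y axes start at 0 and differ by panel). Col22a1 is higher in all open than in all closed eyes, while the 2 eyes of E32 and of E28 lie far apart for Col1a1.

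Closed eyes of labelled-knockout mice E24 and E29 were compared with the summed eyes of the heterozygous mouse E28. With edgeR 0 of 37 members passed, and 0 had an unadjusted p below 0.05; DESeq2 called 0, and 0% of 15442 genes passed with edgeR. The median member differed by 0.22. The smallest p of the higher members was that of Col19a1, at 0.0542 and 0.0591 RPKM in labelled knockouts, against 0.00665 and 0.0125 RPKM in E28 (2.60 ± 1.26, edgeR adjusted p = 1.00), on few reads. Col8a2 (0.38 ± 0.19) and Col4a4 (0.39 ± 0.23) followed. On the lower side were Col13a1 (-0.63 ± 0.62), Col7a1 (-0.50 ± 0.52) and Col11a2 (-0.22 ± 0.26). With all eyes of each mouse summed, open eyes included, the sign turned for Col8a2 (-0.04), Col13a1 (0.09), Col7a1 (0.74) and Col11a2 (0.41). Col11a2 was also 0.06 with voom and 0.49 without the right eye of E28, an alternative chosen after seeing the data. With 1 heterozygous mouse, genotype and mouse cannot be told apart.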

How the data were processed

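Poly(A)+ RNA was amplified for 18 PCR cycles and sequenced on an Illumina HiSeq by a protocol that does not mark strand, per the labels' protocols, so reads of overlapping and antisense genes cannot be separated. The submitters' processing notes name CASAVA 1.8, Bowtie 0.12.9, TopHat2 2.0.11, SAMtools and build mm8. The counting tool is not given in the sources used here. The deposited tables hold the authors' read counts per RefSeq transcript and the authors' RPKM, which was used only to order members and as a filter. Tests used the counts.

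R 4.3.3 ran edgeR 4.0.16 (TMM, filterByExpr, quasi-likelihood) as the test, with DESeq2 1.42.0 and limma 3.58.1 as alternatives. SE is the log2 fold change over the root of F. The 7 newborn and adult libraries shared one model. For day 3 eyes, mouse was a block, since titles name the mouse of each eye. Fits were tested on simulated data. Members, lists and tests were chosen with earlier results of these data known. Named genes are the 3 with the highest mean RPKM per class and, per comparison, up to 5 passing in each direction by p, or 3 where none passed. A few others were named after their values were seen.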

Additional observations from a re-analysis of the deposited data

Results flagged for a closer look

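Of 37 collagens examined in the 4 open eyes at day 3, 4 had the left eye of E32 far from the other 3 eyes by a gap test. Its nominal rate, about 1 in 20 groups by chance, holds for independent values, and genes of the same library are not independent. The gap test was run on the 37 members only, so these flags do not show a trait particular to collagens. Col3a1 stood at 665 RPKM there, against 354 to 388 RPKM in the other open eyes. Col4a1 stood at 288.4 RPKM, against 195 to 202 RPKM. Col4a2 stood at 267 RPKM, against 205 to 208 RPKM, and Col4a6 at 0.986 RPKM, against 0.650 to 0.688 RPKM. Of the 4 eyes, 2 come from E32.

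For Col7a1 the genotype effect in adults minus that in newborns was -3.50 (edgeR adjusted p = 0.0307). It did not pass when either newborn wild type was left out, and the adult effect rests on 1 wild type. Of all genes, 2.8% were called in this test.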

How the results depend on the processing

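The newborn count of 13 became 21 with DESeq2, 21 with only the newborn libraries and 0 to 18 with 1 library left out; over all genes 4226 became 5270 with DESeq2, 0 when the first wild-type library was dropped, 728 when the second was, and 2089 when the first labelled knockout was. The age-difference count of 1 became 2 with no filter, 0 at a mean of at least 5 RPKM, 10 with DESeq2 and 0 to 7 with 1 library left out; over all genes 492 became 2131 with DESeq2. Adult over newborn, fewer than the 28 members passed with wild types only, where the adult group is 1 library. With 1 library left out the median member of that contrast changed by -1.77 to -1.53. Open over closed, 0 became 2 with DESeq2, 1 with no replicate block, 1 with only E24 and E29 and 0 to 1 with 1 mouse left out; over all genes 81 became 369, 400, 210 and, without E24 or E29, 0 and 1. The adult and heterozygous counts were 0 in every alternative run; over all genes the adult 0 became 49 and 205 when the first or second adult labelled knockout was dropped, and DESeq2 called 107 and, against the heterozygous mouse, 10. The sign turned for Col27a1 in open eyes with no replicate block (0.01), and against the heterozygous mouse for Col8a2 (-0.04), Col13a1 (0.09), Col7a1 (0.74) and Col11a2 (0.41) with all eyes of each mouse summed, and for Col11a2 with voom (0.06). With 1 eye of E28, an alternative chosen after seeing the data, Col11a2 was -0.61 to 0.49. The cause was not tested. Replicate numbers are not shown to pair newborn or adult libraries: over 17592 genes same-numbered deviations correlated at 0.193 and 0.088, with 2 numbers only. With the replicate block the newborn count was 18 (17 higher, 1 lower, where 5271 of 16126 genes passed) and adult over newborn 29. At a mean of at least 5 RPKM, 9 newborn members were higher and 2 lower, where 3455 of 9815 genes passed. With only the newborn libraries 20 were higher and 1 lower, where 5426 of 16126 genes passed. Not run were leaving out the adult wild type in adult comparisons (no group left), leaving out E24 or E29 against E28 (no residual degrees of freedom), and pseudocounts, which counts do not need.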
